A study of Mus musculus with 9 samples.

Results

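Sox8 and 5 other Sox factors, namely Sox9, Sox10, Sox4, Sox11 and Sox12, were examined in mini-guts, organoid cultures of the mouse duodenum. The 6 genes were chosen by name, not by their values, as rows of the table of transcription, where they are 6 of 24505 listed genes. A total of 17 of the 49405 regions with unequal H3K27me3 carried one of these 6 gene names. The labels name 3 cultures and the cell type each stands for: RANKL, labelled as the intestinal M cell; ENRI, labelled as enterocyte; and WENRC, labelled as intestinal stem cell. The culture names are kept as labelled, since their letters are not explained, and no strain, age, medium composition or day of harvest was given in the sources used here. Transcription was read by GRO-seq (global run-on sequencing, which labels the RNA that polymerases already on a gene go on to make) in 2 libraries of each culture. H3K27me3, a histone mark of silent genes that PRC2 deposits, was read by ChIP-seq. For it the authors combined 2 libraries of RANKL and set them against 1 of WENRC. The ENRI and WENRC libraries for GRO-seq were numbered by mouse (1 or 2), and the RANKL libraries only by a replicate number. A labelled cell type describes a whole culture, which can hold other cells of the epithelium, and in such bulk samples a change in the share of cells of a type and a change of transcription per cell cannot be told apart.

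Sox proteins bind the minor groove of DNA through an HMG box related to that of Sry and bend the DNA there. Sox8, Sox9 and Sox10 form the SoxE group, which act in the neural crest, glia, cartilage and testis. In the gut, Sox9 marks crypt stem and progenitor cells and is needed for Paneth cells, Sox10 marks enteric glia and their precursors, and Sox8 is known as a factor of M cells, the antigen-sampling cells over lymphoid follicles. Sox4, Sox11 and Sox12 form the SoxC group, transcriptional activators of progenitor cells. Sox4 is known in the intestine for secretory progenitors and tuft cells.

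The Sox8 and Sox12 start sites each lay inside a region of unequal H3K27me3, in opposite directions, and Sox4 had no such region within 50 kb, so the sequences before these 3 starts are shown. Each is the 250 bases before the gene's start in RefSeq's GRCm38.p6 annotation, 5′ to 3′ on the gene's strand, which is the minus strand for all of them. Capitals mark CpG dinucleotides, since PRC2, a Polycomb complex, is known to act at CpG-rich start sites. The windows are chr17:25570687-25570936 for Sox8, chr2:152398047-152398296 for Sox12 and chr13:28953700-28953949 for Sox4, in GRCm38 and not in the mm9 coordinates used for all other positions here.
Sox8: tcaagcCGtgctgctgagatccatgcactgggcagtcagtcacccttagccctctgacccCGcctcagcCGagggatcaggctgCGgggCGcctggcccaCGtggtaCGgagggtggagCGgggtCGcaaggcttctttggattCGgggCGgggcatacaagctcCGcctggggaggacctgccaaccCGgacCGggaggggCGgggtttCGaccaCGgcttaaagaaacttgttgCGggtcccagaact
Sox12: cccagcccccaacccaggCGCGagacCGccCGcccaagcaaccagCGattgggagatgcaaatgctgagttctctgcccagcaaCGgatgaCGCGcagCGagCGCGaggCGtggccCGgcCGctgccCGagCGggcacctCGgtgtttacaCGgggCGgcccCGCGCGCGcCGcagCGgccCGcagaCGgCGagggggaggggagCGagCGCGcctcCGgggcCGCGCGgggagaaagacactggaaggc
Sox4: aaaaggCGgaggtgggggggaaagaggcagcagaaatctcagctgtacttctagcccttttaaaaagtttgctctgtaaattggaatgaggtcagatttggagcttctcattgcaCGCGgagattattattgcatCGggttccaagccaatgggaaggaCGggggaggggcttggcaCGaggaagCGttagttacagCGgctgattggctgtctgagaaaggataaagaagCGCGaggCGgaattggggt
The Sox12 window held 35 CpG, more than 97.0% of the 32851 RefSeq windows of this length, whose median was 6. The Sox8 window held 18 CpG (78.3% of windows held fewer), and the Sox4 window held 11 (64.4% held fewer). Sox11, whose window is not printed, held 17 CpG. G and C made up 74.4% of the Sox12 window, 65.6% of the Sox8 window and 50.8% of the Sox4 window. The start of Cerox1, a long noncoding RNA gene on the plus strand, lay inside the Sox8 window, at position 25570811 of chromosome 17 in GRCm38. None of these windows, that of Sox11 included, held the Sox core ACAAAG, the Ets core GGAAGT or the Esrr core AAGGTCA on either strand; 16.5%, 19.7% and 4.08% of all windows did.

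GRO-seq values are on the log2 scale as deposited, summed over each gene and adjusted for library size by the authors, so differences between cultures are log2 differences, and the reads behind a value are unknown. Of the 24505 genes, 16563 reached 3.32 (10 on the linear scale) in at least 2 libraries and were tested with limma across all 6 libraries, with Benjamini-Hochberg adjustment over all tested genes and a threshold of 0.05. The 2 libraries of a culture differed across tested genes with an SD of 0.22 in RANKL, 0.42 in WENRC and 0.70 in ENRI, so ENRI was the least repeatable. The table's header gives the ENRI and WENRC libraries 2 dates, 1 mouse of each culture per date, and calls the RANKL libraries combined reads of a re-sequencing. The sequencing run and the RANKL culture therefore cannot be told apart, and mouse and date cannot either. The H3K27me3 data held 32.7 M tags in RANKL and 36.3 M in WENRC. All 11 listed M cell genes rose in RANKL against both ENRI and WENRC, with median differences of 2.97 and 3.22. Of the 11 stem cell and Wnt target genes, 8 rose and 0 fell in WENRC against ENRI, and all 8 enterocyte markers fell. These calls rest on the spread pooled over the 3 cultures: in WENRC against ENRI 0 genes passed with only those 4 libraries, without either RANKL library, or without WENRC 2 (4074, 4078, 4075 and 3329 at an unadjusted limma p under 0.05).

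In RANKL against ENRI, 3 of the 5 tested Sox genes passed the test, Sox8 and Sox4 higher and Sox12 lower. Over all tested genes 20.9% passed in that comparison, 10.4% higher and 10.5% lower. In RANKL against WENRC, 2 of 5 passed, Sox8 and Sox4, both higher, beside 12.1% of all tested genes (8.53% higher, 3.62% lower). Sox8 counts in both, although it passed the minimum only through its RANKL libraries and so had to differ. The calls not built in this way were Sox4 and Sox12 against ENRI, and Sox4 against WENRC. In WENRC against ENRI, 0 of 5 passed limma's test, beside 14.6% of all tested genes, 4.85% higher and 9.74% lower. These were 2416 genes, or 124 with the mouse as a block in the 4 ENRI and WENRC libraries alone. At an unadjusted limma p under 0.05, the counts were 0 of the 5 and 5385 of the 16563 tested genes. The balance of directions moved with the scaling: with upper quartiles set equal 1245 genes were higher and 1091 lower in RANKL against WENRC, beside 1412 and 600 as deposited. In WENRC against ENRI the numbers were 1646 higher and 1397 lower with upper quartiles equal, 1633 and 1524 with quantile normalization, and 803 and 1613 as deposited. Quantile normalization gave 1275 and 896 in RANKL against WENRC. By the adjusted p of the authors' deposited table, the members that passed were 3 against ENRI, 3 against WENRC, where Sox12 joined, and 0 in WENRC against ENRI, beside 19.6%, 27.8% and 12.5% of the same genes. Sox11 did not reach the minimum and was not tested. Each comparison shares libraries with both others, as the comparisons of RANKL share the RANKL libraries, so their counts do not stand apart from each other. With only 1 RANKL library kept, either of them, 0 of the 16563 genes passed limma's test in RANKL against WENRC, with 2702 and 2486 at an unadjusted p under 0.05. Against ENRI 111 and 64 genes then passed, and among the members Sox8 alone did. Without the ENRI library of mouse 1, 4 members passed against ENRI and 3 in WENRC against ENRI, while the calls over all genes rose to 6966 and 6650, so the rise was not particular to the members.

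**Figure D1:**
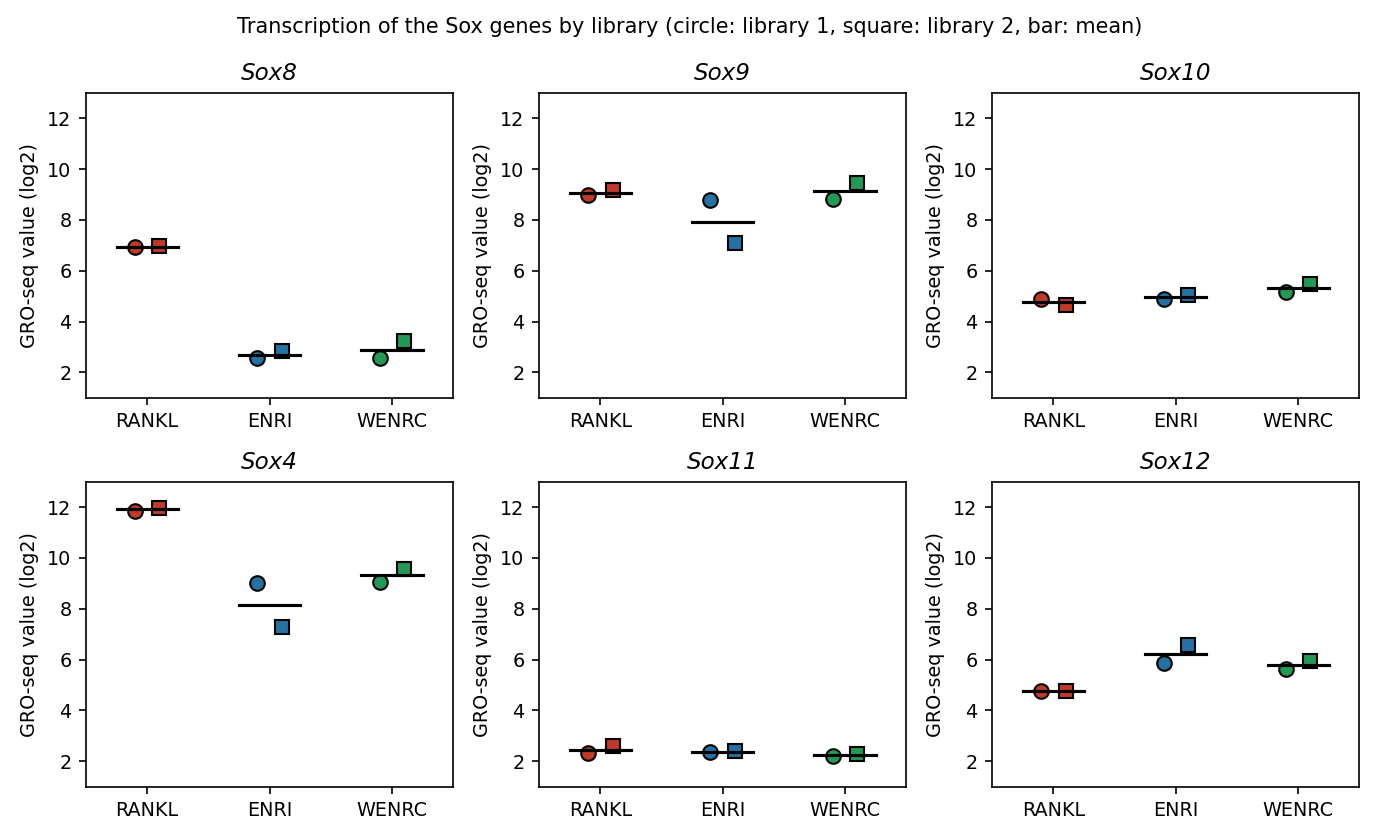
GRO-seq value (log2, vertical axis) of each of the 6 Sox genes in each of the 6 libraries, with circles for library 1, squares for library 2 and a bar for the mean of each culture. Sox8 and Sox4 sit highest in both RANKL libraries, Sox12 sits lowest in them, and the ENRI library of mouse 2 lies well below that of mouse 1 for Sox9 and Sox4.

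Among the SoxE genes, Sox8 (NM_011447, mm9 chr17:25702838-25707631, minus strand, 4793 bp) stood at 6.94 and 6.97 in the RANKL libraries. It stood at 2.57 and 2.83 in the ENRI libraries and at 2.56 and 3.23 in the WENRC libraries. Both RANKL values lay far above all 4 others, while the ENRI and WENRC values overlapped (over tested genes, 58.5% had no overlap between these cultures). Sox8 was 4.25 higher in RANKL than in ENRI on the log2 scale (SE 0.26, limma adjusted p = 0.00146). Against WENRC it was 4.06 higher (SE 0.26, limma adjusted p = 0.00175). Sox8 passed the minimum only through its RANKL libraries and so had to differ, and the size of its difference depends on how the log2 transform behind the table treats low values. In the authors' deposited table the log2 fold changes were larger, 10.9 against ENRI (adjusted p = 5.49e-11) and 8.37 against WENRC (adjusted p = 2.57e-13). With 1 RANKL library left out, the difference from WENRC was 4.07 or 4.04, and limma's adjusted p was 0.0523 or 0.0541. The difference between WENRC and ENRI was 0.20 (limma adjusted p = 0.670), with mouse 1 at -0.01 and mouse 2 at 0.40. For it the authors' deposited table gives a log2 fold change of 3.26, which did not pass. All 4 of these Sox8 values lay below the minimum, so their difference is uncertain.

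Sox8 was set beside the M cell list, which does not hold it. Sox8 had to differ because of the minimum, so this is a description and no test. Its difference of 4.25 from ENRI lay inside the list's range of 1.04 (Ccl20, a chemokine of the follicle epithelium) to 6.26 (Esrrg, an orphan nuclear receptor). Its difference of 4.06 from WENRC lay inside the range of 1.37 (Atoh8, a basic helix-loop-helix factor) to 5.62 (Gp2, an uptake receptor for bacteria on mature M cells). Spib, an Ets factor needed for M cells, was the closest in size among the list's transcription factors to Sox8, with 4.45 against ENRI and 4.02 against WENRC. The summed level of the 11 genes was 14.84 and 14.94 in RANKL and between 11.48 and 11.75 in the other 4 libraries. In WENRC against ENRI, 1 of the 11 rose, Tnfrsf11a, the receptor for RANKL, by 0.66, and 3 fell. Nothing here tests whether Sox8 and these genes are transcribed in the same cells.

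The 5 genes with the pattern nearest to that of Sox8, by Euclidean distance of centred log2 values over the 6 libraries, were Nfatc4 at 0.39, Cspg4 at 0.48, Mphosph8 at 0.51, Il31ra at 0.59 and Rac2 at 0.65. The median distance over tested genes was 4.90. Nfatc4 encodes a calcium-regulated transcription factor, Cspg4 a membrane proteoglycan, Mphosph8 a chromatin reader, Il31ra a cytokine receptor subunit and Rac2 a small GTPase.

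The neighbours of Sox8 were read from the same table. Cerox1 (2810468N07Rik in the table, NR_045176, mm9 chr17:25707756-25711988, plus strand), a long noncoding RNA gene, starts 125 bp from the Sox8 start and runs the other way. It stood at 5.59 and 5.68 in RANKL, 2.67 and 2.81 in ENRI, and 2.67 and 2.88 in WENRC. Cerox1 showed the layout of Sox8, both RANKL libraries high and the other 4 together at the bottom. It was 2.90 higher in RANKL than in ENRI (SE 0.18, limma adjusted p = 0.00140) and 2.86 higher than in WENRC (SE 0.18, limma adjusted p = 0.00146). Against WENRC, limma's adjusted p was 0.0516 or 0.0541 with 1 RANKL library left out. The authors' deposited table gives Cerox1 no fold between ENRI and WENRC. Of the 194 genes that lack one there, 26 had a value above 0, and the highest, 2.88, was that of Cerox1 itself. The low values of Cerox1 in these cultures therefore need not stand for reads. Like Sox8, Cerox1 passed the minimum only through its RANKL libraries and so had to differ. The bodies of Sox8 and Cerox1 do not overlap in the annotation, so their sums share no bases.

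Lmf1, which encodes a chaperone for lipases, starts next beyond Cerox1, at position 25716119. Lmf1 stood at 10.33 and 10.34 in RANKL, 8.87 and 8.65 in ENRI, and 9.76 and 9.39 in WENRC, so it was highest in RANKL but transcribed in all 3 cultures. Its difference from ENRI was 1.58 (limma adjusted p = 0.00432) and that from WENRC 0.76 (limma adjusted p = 0.0424). The latter call was lost when any RANKL or WENRC library was left out, with adjusted p from 0.0850 to 0.286, and with the replicate number as a block, no minimum or no variance trend (0.0541 to 0.0574). The call against ENRI was lost when either RANKL library was left out (adjusted p of 0.0642 or 0.0737). On the other side, 68605 bp from Sox8, lies Sstr5, which encodes a somatostatin receptor. Sstr5 stood at 4.49 and 4.73 in RANKL, 3.04 and 2.92 in ENRI, and 2.86 and 3.04 in WENRC. It was 1.63 higher in RANKL than in ENRI (limma adjusted p = 0.00449) and 1.66 higher than in WENRC (limma adjusted p = 0.00608). Sstr5 too passed the minimum only through its RANKL libraries and so had to differ. Both calls were lost when either RANKL library was left out, with adjusted p from 0.0566 to 0.105, and that against WENRC also without WENRC 1 (0.0613) or WENRC 2 (0.0587).

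**Figure D2:**
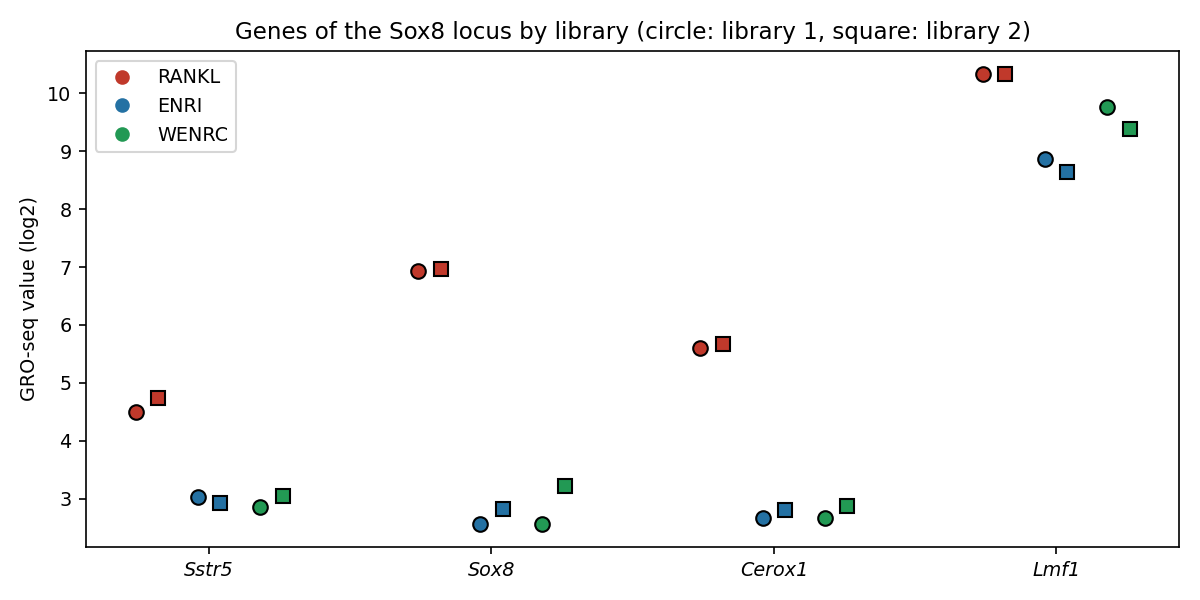
GRO-seq value (log2, vertical axis) of Sox8 and the neighbouring genes Sstr5, Cerox1 and Lmf1 in each library, with circles for library 1, squares for library 2 and colours for the cultures. Sox8 and Cerox1 are at 5.59 or above in RANKL and at 3.23 or below elsewhere, whereas Lmf1 is at 8.65 or above in every library.

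H3K27me3 at Sox8 was compared between RANKL and WENRC only, from the authors' lists of regions at least 2-fold higher in one culture than the other. Tags are sequenced ChIP fragments, and WENRC tags were scaled by the authors to the RANKL depth. The RANKL libraries were pooled and WENRC had 1, so there is no replicate check, and each region's fold and p are the authors' own. A region absent from both lists may carry the mark equally or not at all. Over the Sox8 start lay a region higher in WENRC, chr17:25705304-25709968, 4664 bp long. It reached 2327 bp into the Sox8 gene and, on the other side, across the start of Cerox1. It held 304.3 scaled tags in WENRC, or 65.2 per kb, and 103 tags in RANKL, or 22.1 per kb, a fold of 2.95. The authors' p of the region was 8.71e-58. Sox8 was the only one of the 6 genes with a WENRC-higher region over its start, beside 85 of 24505 listed genes, or 0.347%. Among the 13607 WENRC-higher regions it ranked 11 by length and 13 by tags.

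Further WENRC-higher regions named for Sox8 lay at its end. The first, 1482 bp long, covered the 3′ UTR in exon 3 of 3, with 73.8 scaled tags in WENRC and 29 in RANKL (fold 2.55). The next, 500 bp long and 6178 to 6678 bp past the start, had 23.4 scaled tags in WENRC and 9 in RANKL (fold 2.60). Beyond them the direction turned. From 10062 to 16453 bp past the start, 3 regions were higher in RANKL, with 47, 78 and 44 tags in RANKL and 14.4, 31.5 and 18.9 scaled tags in WENRC, at folds of 3.26, 2.48 and 2.33. The window of 50 kb on each side of the Sox8 start held 8 WENRC-higher and 5 RANKL-higher regions, with summed lengths of 9277 and 4447 bp. Over the Sox8 gene itself the listed regions were thus all lower in RANKL, the culture where Sox8 transcription was higher.

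Sox9 (NM_011448, mm9 chr11:112643524-112649071, plus strand, 5547 bp) was transcribed in all 3 cultures. It stood at 8.97 and 9.17 in RANKL, 8.77 and 7.08 in ENRI, and 8.84 and 9.47 in WENRC. RANKL and WENRC overlapped, and the ENRI library of mouse 2 alone was low. The difference between RANKL and ENRI was 1.14 (SE 0.54, limma adjusted p = 0.182), that between WENRC and ENRI 1.23 (limma adjusted p = 0.176), and that between RANKL and WENRC -0.09 (limma adjusted p = 0.939). Within mouse 1 WENRC exceeded ENRI by 0.07, and within mouse 2 by 2.39. Without the ENRI library of mouse 1, Sox9 passed limma's test against ENRI in RANKL (1.99, adjusted p = 0.00117) and in WENRC (2.07, adjusted p = 0.00107), so the result for Sox9 rests on which ENRI library is taken. The Paneth cell list, of which Sox9 is a known regulator, rose in 3 and fell in 1 of its 8 genes in RANKL against ENRI. Its summed level was 11.31 and 11.14 in RANKL, 9.56 and 10.17 in ENRI, and 9.87 and 10.21 in WENRC; its part in the Sox9 values was not tested. The genes nearest in pattern to Sox9 were Notch2, a Notch receptor, at a distance of 0.39, Arhgef17, a guanine nucleotide exchange factor, at 0.40, and Cnn3, an actin-binding calponin, at 0.43 (median of tested genes 2.01). The single H3K27me3 region named for Sox9 was higher in WENRC, 500 bp long and centred at -7579 bp from its start. It had 17.1 scaled tags in WENRC and 5 in RANKL (fold 3.42). Whatever gene they are named for, 3 RANKL-higher and 2 WENRC-higher regions lay within 50 kb of the Sox9 start.

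Sox10 (NM_011437, mm9 chr15:78985343-78994920, minus strand, 9577 bp) was low in all libraries, at 4.90 and 4.64 in RANKL, 4.91 and 5.05 in ENRI, and 5.18 and 5.47 in WENRC. The RANKL values lay just under both other cultures, without overlap, as did 64.7% of tested genes in one direction or the other against ENRI and 68.6% against WENRC. No comparison of Sox10 passed: the difference from ENRI was -0.21 (SE 0.21, limma adjusted p = 0.516) and that from WENRC -0.56 (SE 0.21, limma adjusted p = 0.140). The listed glial and neural crest markers gave no common picture beside it. Foxd3, a neural crest factor, lay below the minimum in every library. The summed level of the list was 10.97 to 11.07 in RANKL, 11.50 to 11.94 in ENRI and 9.88 to 10.17 in WENRC, and nearly all of it was Erbb3, a receptor that epithelium also expresses. Polr2f, which encodes a shared RNA polymerase subunit, lies on the other strand and ends 3139 bp from the Sox10 end. Polr2f stood at 7.11 and 7.20 in RANKL, 7.36 and 7.23 in ENRI, and 7.70 and 7.66 in WENRC, a difference of -0.53 between RANKL and WENRC (limma adjusted p = 0.0864), close to that of Sox10. Whether transcription past the end of Polr2f enters the Sox10 sum was not tested. Nearest in pattern to Sox10 were Medag at 0.14, Magee1 at 0.15 and Tacc1 at 0.18 (median of tested genes 0.99). Within intron 3 of 3 of Sox10, a 500 bp region had more H3K27me3 in RANKL, 31 tags against 13.5 scaled tags in WENRC (fold 2.30). Whatever gene they are named for, 7 RANKL-higher regions, 5067 bp in all, and 1 WENRC-higher region lay within 50 kb of the Sox10 start.

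Of the SoxC genes, Sox4 (NM_009238, mm9 chr13:29042599-29045551, minus strand, 2952 bp) had the highest values. It stood at 11.84 and 11.97 in RANKL, 9.00 and 7.27 in ENRI, and 9.06 and 9.57 in WENRC. Both RANKL libraries lay above all others, and the WENRC values lay above the ENRI values with a gap of only 0.06 in mouse 1. Sox4 was 3.77 higher in RANKL than in ENRI (SE 0.53, limma adjusted p = 0.00861) and 2.59 higher than in WENRC (SE 0.53, limma adjusted p = 0.0320). The authors' deposited table gives log2 fold changes of 3.98 (adjusted p = 1.5e-10) and 2.90 (adjusted p = 1.38e-49) for the same comparisons. Leaving out either RANKL library kept the differences (3.83 and 3.71 against ENRI, 2.65 and 2.53 against WENRC) and ended the limma calls, with adjusted p from 0.0816 to 0.229. Leaving out WENRC 1 or WENRC 2 gave 2.34 or 2.84 against WENRC, with adjusted p of 0.182 or 0.143. The difference between WENRC and ENRI was 1.18 (limma adjusted p = 0.189), with 0.06 in mouse 1 and 2.30 in mouse 2.

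Tuft cells need Sox4 for their formation, and their markers were read beside it. Of the 4 tested tuft markers, 2 rose in RANKL against ENRI and 1 against WENRC, with median differences of 1.09 and 1.08. Their summed level was 9.58 and 9.67 in RANKL, 8.73 and 8.56 in ENRI, and 8.85 and 9.04 in WENRC. Il25, a cytokine made by tuft cells, was listed at 0 in every library, and Alox5ap stayed below the minimum. Among the 7 tested secretory lineage factors, 3 rose and 1 fell in RANKL against ENRI. Pou2f3, the tuft cell master regulator, rose by 1.89 and Hes1, a Notch effector, fell by 1.21. The part of tuft or secretory cells in the Sox4 values was not tested. Nearest in pattern to Sox4 were Prnp, the prion protein gene, at 0.68, Prn at 0.72, a read-through transcript annotated over the same gene, and Tmem132a at 0.80, against a median of 4.13 over tested genes. The genes on either side of Sox4 are noncoding and more than 50 kb away, and neither passed in a comparison of RANKL. Neither list of unequal H3K27me3 held a region named for Sox4 or within 50 kb of its start.

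Sox12 (NM_011438, mm9 chr2:152219348-152223782, minus strand, 4434 bp) went the other way. It stood at 4.76 and 4.75 in RANKL, 5.87 and 6.58 in ENRI, and 5.63 and 5.93 in WENRC. The RANKL libraries were the lowest without overlap, and ENRI and WENRC overlapped. In RANKL, Sox12 fell by 1.47 on the log2 scale against ENRI (SE 0.28, limma adjusted p = 0.0191). Against WENRC the difference was -1.02 (SE 0.28, limma adjusted p = 0.0700). Both were also negative in the authors' deposited table, with log2 fold changes of -3.23 (adjusted p = 0.00073) and -2.43 (adjusted p = 0.00888). The call against ENRI was lost without RANKL 1 (-1.47, adjusted p = 0.134), without RANKL 2 (-1.46, adjusted p = 0.150) and without WENRC 1 (adjusted p = 0.0501). With the mouse of ENRI and WENRC as a block, the difference from WENRC passed limma's test (adjusted p = 0.0198), as it did without ENRI 1 or ENRI 2 (adjusted p = 0.00746 or 0.00731). The genes nearest in pattern to Sox12 were Nfil3, a basic leucine zipper repressor, at 0.26, Tmem230 at 0.27 and Rhob, a small GTPase, at 0.28 (median of tested genes 1.77).

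The Sox12 start lay in a region with more H3K27me3 in RANKL, chr2:152220961-152226914, 5953 bp long. It ran from 3132 bp before the start to 2821 bp past it. It held 447 tags in RANKL, or 75.1 per kb, and 127.8 scaled tags in WENRC, or 21.5 per kb, a fold of 3.50. The authors' p of the region was 1.04e-106. Among 35798 RANKL-higher regions it ranked 105 by length and 65 by tags. RANKL-higher regions covered the starts of 1668 of 24505 listed genes, or 6.81%, so such a region is much commoner than the kind found at Sox8. The 50 kb on each side of the Sox12 start held 9 RANKL-higher regions, 15519 bp in all, and 0 WENRC-higher ones. Zcchc3, the next gene, which encodes a zinc finger protein and has a RANKL-higher region of its own, stood at 3.08 and 3.05 in RANKL, 3.38 and 3.68 in ENRI, and 3.39 and 3.67 in WENRC. Its difference was -0.46 against ENRI (limma adjusted p = 0.146) and -0.46 against WENRC (limma adjusted p = 0.181).

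**Figure D3:**
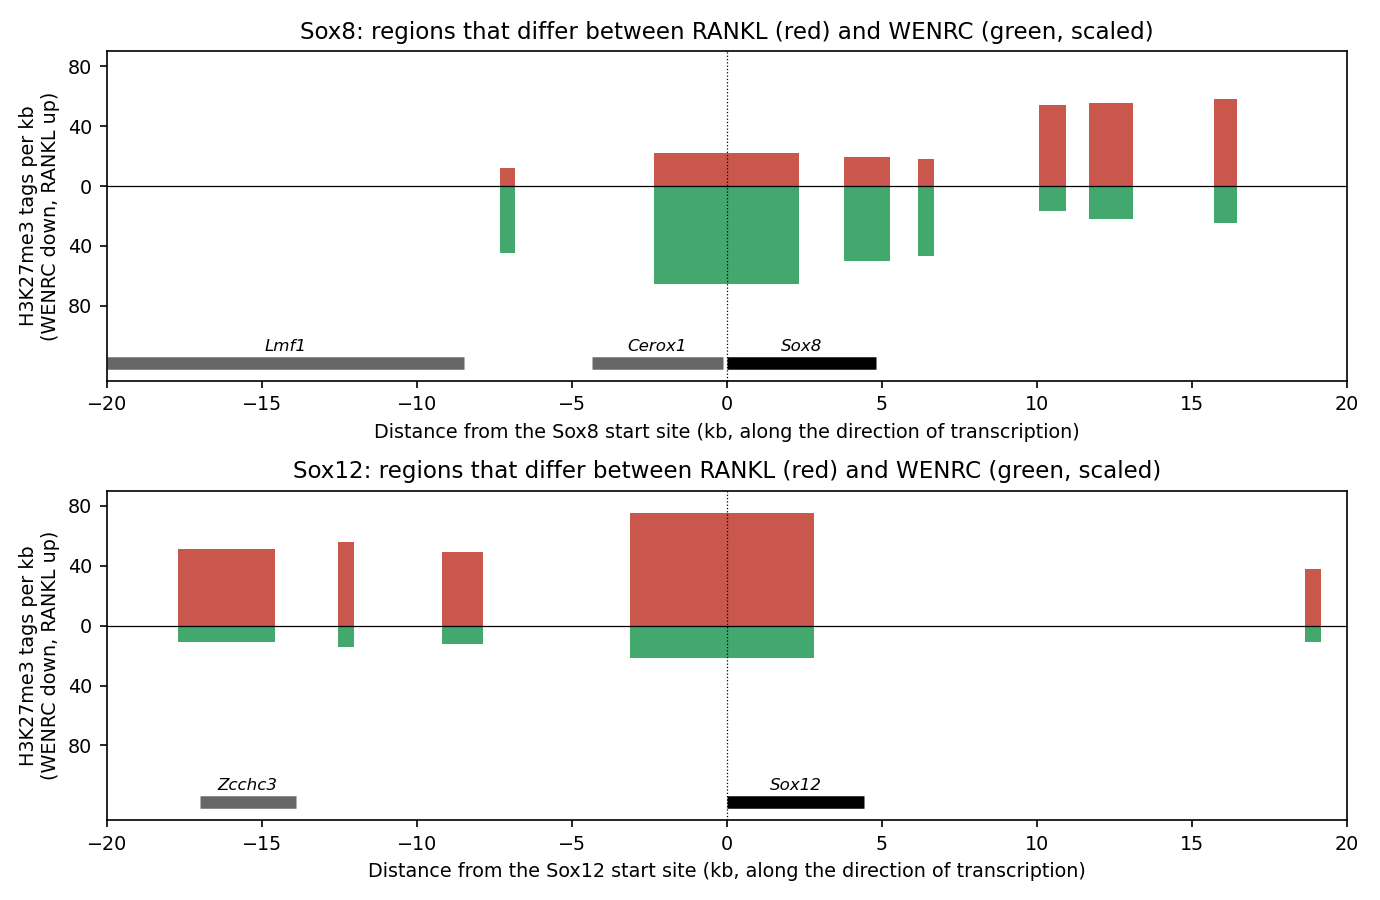
H3K27me3 tags per kb (vertical axis, RANKL drawn upward in red, scaled WENRC downward in green) in each region that differs between the cultures, by distance from the start of Sox8 (upper panel) and Sox12 (lower panel) in kb along the gene's direction. The region over the Sox8 start holds 22.1 tags per kb in RANKL and 65.2 in WENRC, and that over the Sox12 start holds 75.1 and 21.5.

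Sox11 (NM_009234, mm9 chr12:28019133-28027583, minus strand, 8450 bp) stayed under the minimum everywhere, at 2.32 and 2.60 in RANKL, 2.36 and 2.39 in ENRI, and 2.23 and 2.29 in WENRC. No level is read from these values, since all lay below the minimum. H3K27me3 nonetheless differed in places: 5 regions were higher in RANKL, with 18 to 56 tags and folds of 2.22 to 3.49, and 2 of these lay in the 3′ UTR of its only exon. A further 3 were higher in WENRC, at 45367, -140229 and -262297 bp from the start, with folds of 3.60, 3.60 and 4.50. None covered the Sox11 start. Its nearest listed neighbours lie 173752 and 1095077 bp away.

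**Figure D4:**
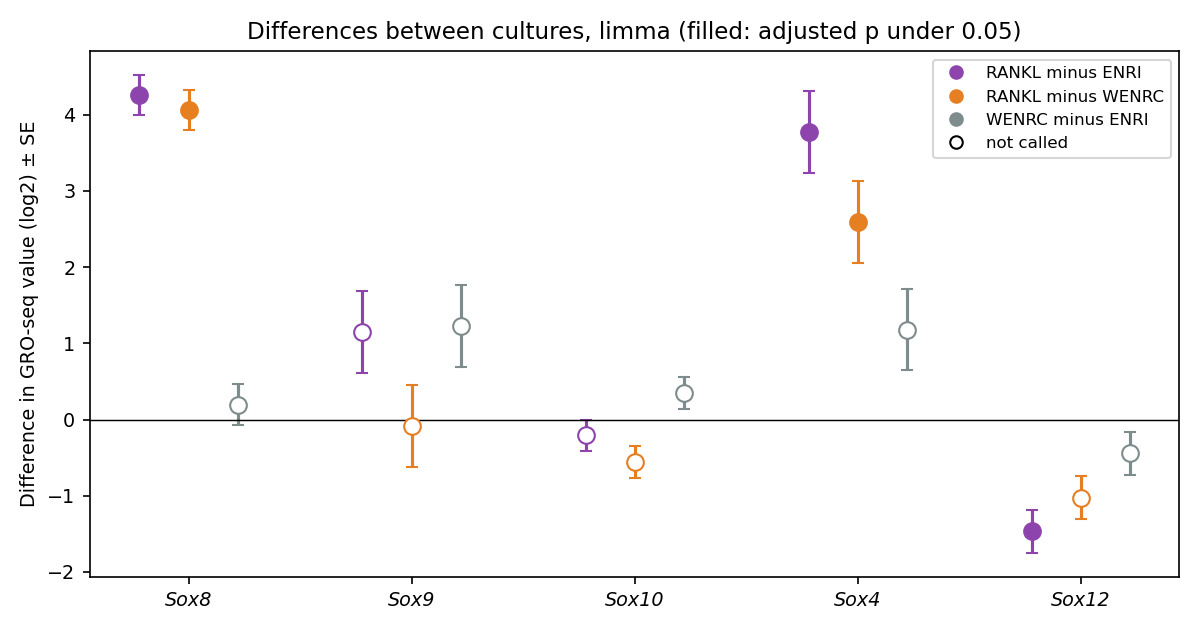
Difference in GRO-seq value (log2, vertical axis, error bars of 1 SE) of each of the 5 tested Sox genes for the 3 comparisons of cultures, from limma on all 6 libraries, with filled points where the adjusted p was under 0.05. Sox8 and Sox4 lie above 0 in both comparisons of RANKL, Sox12 lies below 0 in both, and the WENRC minus ENRI differences lie between -0.44 and 1.23.

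Per kb of gene, the order of the mean log2 levels in RANKL was Sox4 (10.34), Sox9 (6.60), Sox8 (4.69), Sox12 (2.61) and Sox10 (1.51). In ENRI the order was Sox4 (6.57), Sox9 (5.45), Sox12 (4.07) and Sox10 (1.72). In WENRC it was Sox4 (7.75), Sox9 (6.68), Sox12 (3.63) and Sox10 (2.07). Sox11 in all cultures and Sox8 in ENRI and WENRC were given no place, since their values lay below the minimum. Sox4 and Sox9 thus led in each culture. In ENRI both genes varied between the libraries (SD 1.22 and 1.19), yet Sox4 lay above Sox9 in each of them. Before the adjustment for length Sox4 stood there at 9.00 and 7.27 and Sox9 at 8.77 and 7.08. Lengths are whole genes with introns.

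Of the other 14 listed Sox genes, 6 reached the minimum and were tested (Sox21, Sox5, Sox6, Sox13, Sox15 and Sox30). In RANKL against ENRI and in WENRC against ENRI 1 of the 6 passed, a share near the 20.9% and 14.6% of all tested genes, and 0 passed in RANKL against WENRC. Leaving out the ENRI library of mouse 1 raised these counts, but it raised those over all tested genes too. The rise was therefore not particular to these Sox genes. The gene that passed on all 6 libraries was Sox6, a SoxD factor without an activation domain of its own, at 10.87 and 10.88 in RANKL, 11.48 and 11.79 in ENRI, and 10.82 and 10.77 in WENRC. ENRI was the highest without overlap, and Sox6 fell by 0.76 in RANKL against ENRI (SE 0.15, limma adjusted p = 0.0222) and by 0.84 in WENRC against ENRI (limma adjusted p = 0.0237). Both calls were lost when any RANKL or WENRC library was left out, with adjusted p from 0.0528 to 0.186, and with the mouse or replicate number as a block in the 4 libraries of each comparison (0.0920 and 0.124). The median difference of the 6 genes was -0.15 in RANKL against ENRI and -0.02 against WENRC, beside medians of -0.005 and -0.007 over all tested genes. Sox2 and Sry were listed at 0 in every library.

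The remaining lists bear on which cells the cultures held. Among the stem cell and Wnt target genes, 5 of 11 rose in RANKL against ENRI, from Lgr5 at 0.10, which did not pass, to Olfm4 at 4.70. Against WENRC 1 rose, Tnfrsf19 by 1.69, while Lgr5, the stem cell receptor for R-spondin, fell by 3.02. Secretory lineage factors included 2 that rose and 1 that fell in RANKL against WENRC, Hes1 at -1.31 and Pou2f3 at 1.31 being the extremes. In WENRC against ENRI, 1 secretory factor rose, the Notch ligand Dll4 by 0.83, and the Notch ligand Dll1 fell by 1.11. The 8 Paneth markers gave 3 higher and 1 lower in RANKL against WENRC and 1 higher in WENRC against ENRI. Of 8 enterocyte markers, 4 fell in RANKL against ENRI and 4 rose against WENRC. Of 6 goblet markers, 0 passed against ENRI, 4 rose in RANKL against WENRC and 5 fell in WENRC against ENRI. Of 6 tested enteroendocrine markers, 1 rose in RANKL against ENRI, Neurod1 by 0.89, and 1 against WENRC, Chga by 0.89. Glial markers gave 1 of 4 tested lower in RANKL against ENRI, 1 higher against WENRC and 1 lower in WENRC against ENRI. Mesenchyme markers had 5 of 6 below the minimum in every library, and 0 passed. Of 3 tested immune markers, 0 passed in RANKL against either culture and 1 rose in WENRC against ENRI. Since 0 genes passed in RANKL against WENRC with 1 RANKL library left out, each of these counts of RANKL against WENRC rests on both RANKL libraries, and all counts of WENRC against ENRI fall to 0 with only those 4 libraries in the fit.

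Regions of unequal H3K27me3 were named for most of these other Sox genes. A region can lie far from the gene it is named for, as did a WENRC-higher region 373363 bp from a Sox6 start by the authors' distance. RANKL-higher regions, 55 in all, were named for 11 of the 14 and covered the starts of 6: Sox2, Sox14, Sox6, Sox7, Sox17 and Sox30, at folds of 2.01 to 3.07. WENRC-higher regions, 20 in all, were named for 8 and covered the start of 0. For comparison, 33.7% of all listed genes had a RANKL-higher region by name and 24.0% a WENRC-higher one, while the 6 members had 4 and 3. RANKL-higher regions covered the starts of 6.81% of all listed genes and WENRC-higher regions those of 0.347%.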

How the data were processed

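GRO-seq was measured in 6 libraries (2 each of RANKL, ENRI and WENRC) and H3K27me3 in 3. Reads were aligned to mm9 with Bowtie2 2.3.4.1, and HOMER and DESeq2 were used, per the submitters' processing notes. HOMER counted the reads of each RefSeq gene over its full length, per the file headers. The deposited table holds log2 values for each library, with the authors' log2 fold changes and p-values, which were turned so that each is the culture named first minus the other. The exact log2 transform is not given in the sources used here, and the values keep no depth. For H3K27me3 the authors deposited regions at least 2-fold higher in one culture. Each has a tag count in RANKL, a WENRC signal scaled to the RANKL depth, and the authors' fold ratio and p-value. From the WENRC-higher list, 12 rows without a chromosome or start position were left out and are not among the regions counted here. Distances, gene lengths and region lengths are in bp.

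The log2 values were tested with limma 3.58.1 in R 4.3.3 (group means of 3 cultures, variance trend), on genes at 3.32 or more in at least 2 libraries, with Benjamini-Hochberg adjustment and a threshold of 0.05; the fit was tested on simulated data. H3K27me3 was not tested. Alternatives were other sample sets, replicate blocks, scalings and filters, the authors' p-values and leaving out each library. The labels tie ENRI and WENRC by mouse, and their deviations from the group means correlated at 0.414. RANKL carries only replicate numbers (-0.205 with ENRI, -0.323 with WENRC), so no pairing was used for it. The p-values measure the spread between these libraries, of which RANKL's may be technical.

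The genes and gene lists were chosen with earlier results of these data known. Named beside the 6 genes were other Sox genes that passed or held a region, the extremes of the M cell, stem cell and secretory lists, the nearest neighbours, and the 5 (Sox8) or 3 (others) genes closest in pattern. The Spib, Tnfrsf11a, Tnfrsf19, Chga, Neurod1, Foxd3, Erbb3, Il25 and Alox5ap values and the Lmf1 values were chosen after they were seen. Promoter windows are from RefSeq (GRCm38.p6), where 4 of the 6 genes matched; Sox9 and Sox10 had no entry.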

Additional observations from a re-analysis of the deposited data

How the results depend on the processing

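Counts over all genes moved with the libraries used. In RANKL against ENRI 3464 genes passed, 1925 with only the 4 libraries compared, 1423 with the replicate block in those 4, and 64 to 6966 with 1 library left out. In RANKL against WENRC 2012 passed, 5194 with the 4 libraries, 4686 with the replicate block in those 4, 4604 in the authors' deposited table, and 0 to 5176 with 1 library left out. In WENRC against ENRI 2416 passed, 0 with the 4 libraries (4074 at an unadjusted limma p under 0.05), 1506 with the replicate number as a block in all 6, 124 with the replicate block in the 4, and 0 to 6650 with 1 library left out. With the RANKL numbers crossed, a replicate block chosen after seeing the data, 1822 genes passed against ENRI and 6241 against WENRC.

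Of the 6 Sox genes, 3 passed in RANKL against ENRI (1 to 4 with 1 library left out), 2 in RANKL against WENRC (0 to 3 with 1 left out, 4 with the crossed replicate block, where Sox10 and Sox12 joined) and 0 in WENRC against ENRI (0 to 3). Where the RANKL counts include Sox8, its call was built in through the minimum. The replicate block in the 4 libraries ended the Sox12 call against ENRI (limma adjusted p = 0.0606). Every alternative kept the sign of the Sox8, Sox4 and Sox12 differences of RANKL. Reversed were Sox9 in RANKL against WENRC, at 0.01 without RANKL 1 and 0.23 without WENRC 2 (-0.40 to 0.23 with 1 library left out), and Sox8 in WENRC against ENRI, at -0.14 without WENRC 2 (-0.14 to 0.53). The cause was not tested. Setting upper quartiles equal moved the median of all genes from -0.007 to -0.122 in RANKL against WENRC. Sox10 has no value under the stricter minimum and Sox11 none in any fit with a minimum. Of the 10 RANKL-higher H3K27me3 regions, 0 had a fold of 4 or more and 2 lay within 5 kb of the start; of the 7 WENRC-higher regions, 1 and 2 did.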

Other observations

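Sox8 and Cerox1 form a head-to-head pair, and such pairs were counted after this one had been seen. Among 994 pairs of tested genes on opposite strands whose starts lie within 1 kb of each other, 179 had at least 1 gene that passed as higher in RANKL than in ENRI, and in 16 of these (8.94%) both did. Against WENRC the numbers were 101 and 8 (7.92%). The Sox8 and Cerox1 pair is in both counts, and its calls were built in through the minimum. Of single tested genes, 10.4% passed as higher against ENRI and 8.53% against WENRC. No share for pairs of genes that are not neighbours was computed, so the shares of pairs are a description only. Across all 994 pairs the differences of the partner genes correlated at 0.34 against ENRI and 0.28 against WENRC, a description over genes that share libraries.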
